A study of Mus musculus with 6 samples.

Results

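The 10 genes described here encode core components of the cGAS-STING pathway: Cgas, Trex1, Sting1, Tbk1, Ikbke, Irf3, Enpp1, Slc19a1, Ifnar1 and Ifnar2. They were chosen by name, as pathway components, out of 33965 genes in the deposited table of MC38 tumors. All 10 passed the filter on low counts that left 19602 genes for testing. MC38 cells come from a mouse colon carcinoma, and here they formed tumors under the skin of C57BL/6 mice. The study's methods give the mice as female and 6 weeks old at purchase. Bulk RNA-seq covered 3 tumors of PBS-treated mice and 3 tumors of mice treated with GB2, an intravenously injected prodrug in which a disulfide bond links artesunate to MSA-2, a STING agonist. The labels give neither the dose nor the time for the sequenced tumors, nor whether each tumor came from its own mouse, so p-values measure the spread between these samples.

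The cGAS-STING pathway detects DNA in the cytosol. The enzyme cGAS binds double-stranded DNA and makes the cyclic dinucleotide cGAMP, which binds STING on the endoplasmic reticulum; STING then moves to the Golgi and recruits the kinase TBK1 or its relative IKKε, and the transcription factor IRF3 is phosphorylated and turns on type I interferon. Secreted interferon binds the receptor formed by IFNAR1 and IFNAR2 and drives interferon-stimulated genes through the kinases JAK1 and TYK2 and transcription factors that include STAT2 and IRF9. MSA-2 acts on STING directly, downstream of cGAS. Much of this signalling runs through protein modification and movement, which RNA levels do not measure, so the comparison below asks only whether the transcripts of the components differed between GB2 and PBS tumors.

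The libraries held between 64764405 and 83690056 estimated counts, with all GB2 libraries above all PBS libraries. CPM, counts scaled to the size of the library after TMM normalization, were used to compare one gene between tumors, and FPKM values, which are also divided by transcript length, were used to compare genes with each other. PBS tumor 1 stood apart from the other tumors on the first principal component, which held 34.0% of the variance. Marker RNA of several cell types also differed between the groups. All 10 genes of a macrophage marker list, such as Lyz2 and Adgre1, were higher in every GB2 tumor than in every PBS tumor, and their summed level ran from 65.2 to 92.3 CPM in PBS tumors and from 254 to 354 CPM in GB2 tumors. Summed T cell markers stayed low, between 0.368 and 6.44 CPM in PBS tumors and between 0.691 and 4.08 CPM in GB2 tumors, with Cd3e and Cd3g at 0 in at least 1 tumor. Summed fibroblast markers ran from 295 to 525 CPM in PBS tumors and from 980 to 1352 CPM in GB2 tumors. In the same order, endothelial markers ran from 73.9 to 88.9 and from 146 to 166 CPM. Skeletal muscle markers ran from 101 to 172 and from 212 to 240 CPM. The 5 tested of 8 dendritic cell markers ran from 8.28 to 11.2 and from 14.3 to 17.0 CPM. Among these 5, Itgax averaged 1.51 CPM in PBS tumors and 5.22 CPM in GB2 tumors, and Zbtb46 7.21 and 9.08 CPM. The endothelial marker Vwf and the dendritic cell marker Batf3 were lower, with log2 fold changes, GB2 against PBS, of -0.48 and -0.58. Epithelial markers were low for a carcinoma, with the 6 tested of 8 listed genes, Epcam and Krt8 among them, summing to between 3.00 and 8.78 CPM in the 6 tumors. In bulk tissue, fewer cells of a type and less RNA per cell cannot be told apart, and the part of this shift in the results below was not tested.

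The promoters of 4 genes are shown to set the pathway genes beside a gene that interferon is known to induce: Cgas as the member whose CPM groups did not overlap, Ifnar1 and Ifnar2 as the members that hold a motif match, and Oas1a, an interferon-stimulated gene, for contrast. The sequences are from RefSeq on GRCm38.p6 and run from 250 bases before to 50 bases after an annotated start, written 5′ to 3′ on the strand of the gene. Capitals mark matches to the core of the interferon-stimulated response element, GAAA followed by any 2 bases and GAAA, which binds a complex that holds STAT2 and IRF9, or to the core of the gamma-activated site, TTCNNNGAA, a motif of interferon-responsive promoters. Both strands were searched, and matches to the same motif may overlap. The windows lie at chr9:78443188-78443487 on the minus strand for Cgas, chr16:91484965-91485264 on the plus strand for Ifnar1, chr16:91372533-91372832 on the plus strand for Ifnar2 and chr5:120907476-120907775 on the minus strand for Oas1a.
Cgas: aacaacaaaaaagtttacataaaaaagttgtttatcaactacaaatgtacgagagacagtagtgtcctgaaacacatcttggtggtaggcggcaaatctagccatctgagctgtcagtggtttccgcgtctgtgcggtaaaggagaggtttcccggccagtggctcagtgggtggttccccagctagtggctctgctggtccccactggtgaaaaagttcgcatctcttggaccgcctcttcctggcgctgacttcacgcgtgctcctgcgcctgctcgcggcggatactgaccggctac
Ifnar1: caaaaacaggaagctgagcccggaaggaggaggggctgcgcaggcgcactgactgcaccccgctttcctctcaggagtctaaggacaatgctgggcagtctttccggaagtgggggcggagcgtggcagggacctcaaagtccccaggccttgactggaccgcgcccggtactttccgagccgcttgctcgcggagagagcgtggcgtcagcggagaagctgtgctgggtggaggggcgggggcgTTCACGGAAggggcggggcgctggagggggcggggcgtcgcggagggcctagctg
Ifnar2: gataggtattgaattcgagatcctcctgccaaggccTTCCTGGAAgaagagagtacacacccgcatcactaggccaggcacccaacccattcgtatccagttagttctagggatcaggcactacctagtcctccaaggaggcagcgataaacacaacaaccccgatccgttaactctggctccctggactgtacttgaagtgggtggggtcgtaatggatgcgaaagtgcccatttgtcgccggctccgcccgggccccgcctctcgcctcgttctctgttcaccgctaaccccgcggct
Oas1a: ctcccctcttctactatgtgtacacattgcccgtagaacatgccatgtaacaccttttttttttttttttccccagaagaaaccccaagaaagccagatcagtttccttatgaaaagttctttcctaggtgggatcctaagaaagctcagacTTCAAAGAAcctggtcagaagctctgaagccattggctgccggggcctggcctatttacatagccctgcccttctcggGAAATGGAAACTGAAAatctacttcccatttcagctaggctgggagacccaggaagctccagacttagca

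RefSeq windows were read for 9 of the 10 genes, 11 windows in all. Windows on chromosome 18, where Sting1 lies, were left out, so Sting1 was not searched. The interferon-stimulated response element core was found in 0 of the 11 windows, against 3.44% of 32851 promoter windows of the same length. The gamma-activated site core was found in 2 of the 11, against 8.3% of all windows. It begins at -214 relative to the start in Ifnar2, as TTCCTGGAA, and at -5 in Ifnar1, as TTCACGGAA. The Oas1a window holds overlapping response element matches that begin at -20 and -14, and a gamma-activated site match at -98. A match is a description of these letters and not of binding, and a window without a match says only that the letters are not there.

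Of the 10 pathway genes, 0 passed the limits of a fold of 2 or more and a Benjamini-Hochberg adjusted p under 0.05 in edgeR's quasi-likelihood test, where 0% of all 19602 genes did. At an unadjusted p under 0.05 the test also gave 0 of 10, against 6.94% of all genes, and DESeq2 called 0 of 10, against 1.96% of all genes. DESeq2 gave 1 gene, Cgas, an unadjusted p under 0.05, at 0.0461, against 9.05% of all genes. The log2 fold changes, GB2 against PBS, ran from -0.26 for Tbk1 to 0.44 for Cgas, with a median of 0.12 beside -0.02 over all genes tested. Leaving out PBS tumor 1 moved the median of the 10 genes to 0.0065, and leaving out PBS tumor 3 moved it to 0.28. They were above 0 in 7 of 10 genes, where 48.3% of all genes were. All 10 confidence intervals of 95% included no change. The intervals of 7 genes lay within a 2-fold change in either direction, and those of Trex1, Enpp1 and Ifnar1 reached beyond it.

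**Figure D1:**
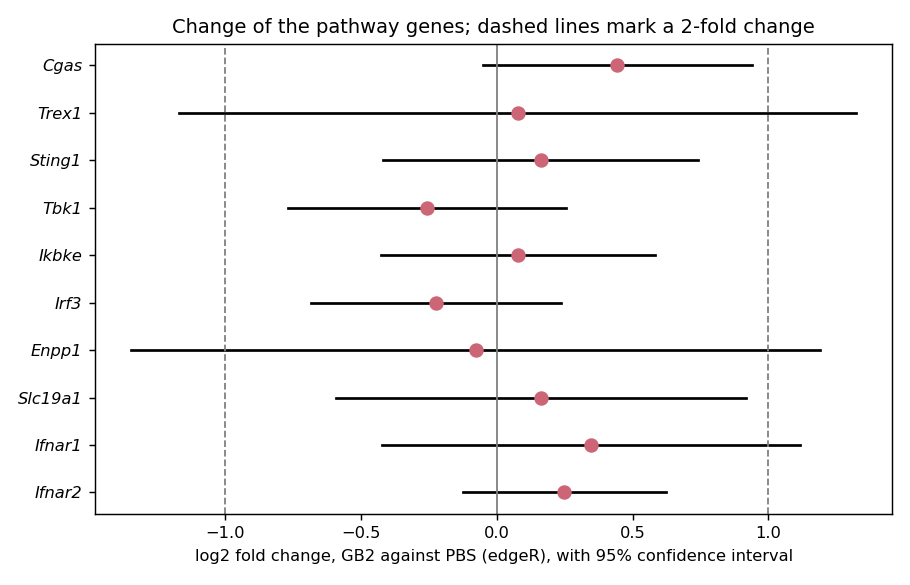
Log2 fold change of each pathway gene in GB2 against PBS tumors (3 tumors each) from edgeR's fit on the x axis, with points for the estimate, bars for the 95% confidence interval and dashed lines at a 2-fold change. All 10 bars cross 0, and the bars of Trex1, Enpp1 and Ifnar1 pass a dashed line.

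Cgas, which encodes the DNA sensor that makes cGAMP, was the only gene of the 10 whose CPM did not overlap between the groups, against 15.3% of all genes, 8.61% being higher and 6.68% lower in GB2 tumors. Cgas (ENSMUSG00000032344) lies on chromosome 9 from 78337808 to 78350519 on the minus strand in the positions of the deposited table. Its level was 14.1, 12.5 and 10.04 CPM in PBS tumors 1, 2 and 3, and 17.9, 16.8 and 15.1 CPM in GB2 tumors 1, 2 and 3. Every GB2 tumor was above every PBS tumor, although the gap between the lowest GB2 and the highest PBS tumor was smaller than the range within either group. The mean was 12.2 ± 2.02 CPM (SD, n = 3) in PBS tumors and 16.6 ± 1.38 CPM (SD, n = 3) in GB2 tumors. The fold change was 1.36, with a 95% confidence interval of 0.965 to 1.92, and the log2 fold change of 0.44 had a standard error of 0.21 and a p of 0.0722 in edgeR, 0.757 once adjusted. The exact permutation test on the mean difference of log2 CPM, 2-sided, gave p = 0.1, the smallest that 3 against 3 tumors allow. Leaving out single tumors gave log2 fold changes between 0.33, without PBS tumor 3 (p of 0.184 in edgeR), and 0.57, without PBS tumor 1 (p of 0.0218 in edgeR, or 0.415 once adjusted). Without any 1 of the other tumors the p in edgeR lay between 0.0868 and 0.183.

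Trex1 encodes the exonuclease that degrades cytosolic DNA and so removes the substrate of cGAS. Trex1 (ENSMUSG00000049734, chromosome 9, 108887001 to 108888802, minus strand) had few counts, with 74, 79 and 139 in PBS tumors and 52, 207 and 125 in GB2 tumors. These stand for 1.25, 1.12 and 1.97 CPM in PBS tumors and 0.619, 2.49 and 1.47 CPM in GB2 tumors. The groups overlapped, and GB2 tumors held both the lowest and the highest of the 6 values. For Trex1 the log2 fold change was 0.08 ± 0.53 (standard error), and the confidence interval ran from a fold of 0.444 to 2.50, so a 2-fold change in either direction was not detectable at this depth and spread. The direction turned without GB2 tumor 2, at -0.46, and without PBS tumor 2, at -0.07. The Trex1 interval lies inside that of Atrip on the same strand, a gene with up to 2390 counts in a tumor, and the counting could split reads between them, so the level of Trex1 is uncertain.

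Sting1, the adaptor on which MSA-2 acts, did not differ between the groups by more than the spread between tumors. Sting1 (ENSMUSG00000024349, chromosome 18, 35866732 to 35873542, minus strand) measured 33.6, 50.6 and 47.6 CPM in PBS tumors and 49.9, 61.1 and 36.5 CPM in GB2 tumors. The highest value was in GB2 tumor 2 and the lowest in PBS tumor 1, and GB2 tumor 3 lay below 2 of the 3 PBS tumors. PBS tumors averaged 43.9 ± 9.07 CPM (SD, n = 3) and GB2 tumors 49.2 ± 12.3 CPM (SD, n = 3). With a log2 fold change of 0.16 ± 0.25 (standard error), the adjusted p of edgeR was 0.888, and the confidence interval ran from a fold of 0.749 to 1.67. Leaving out PBS tumor 1 gave 0.01, and leaving out GB2 tumor 2 gave -0.02.

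**Figure D2:**
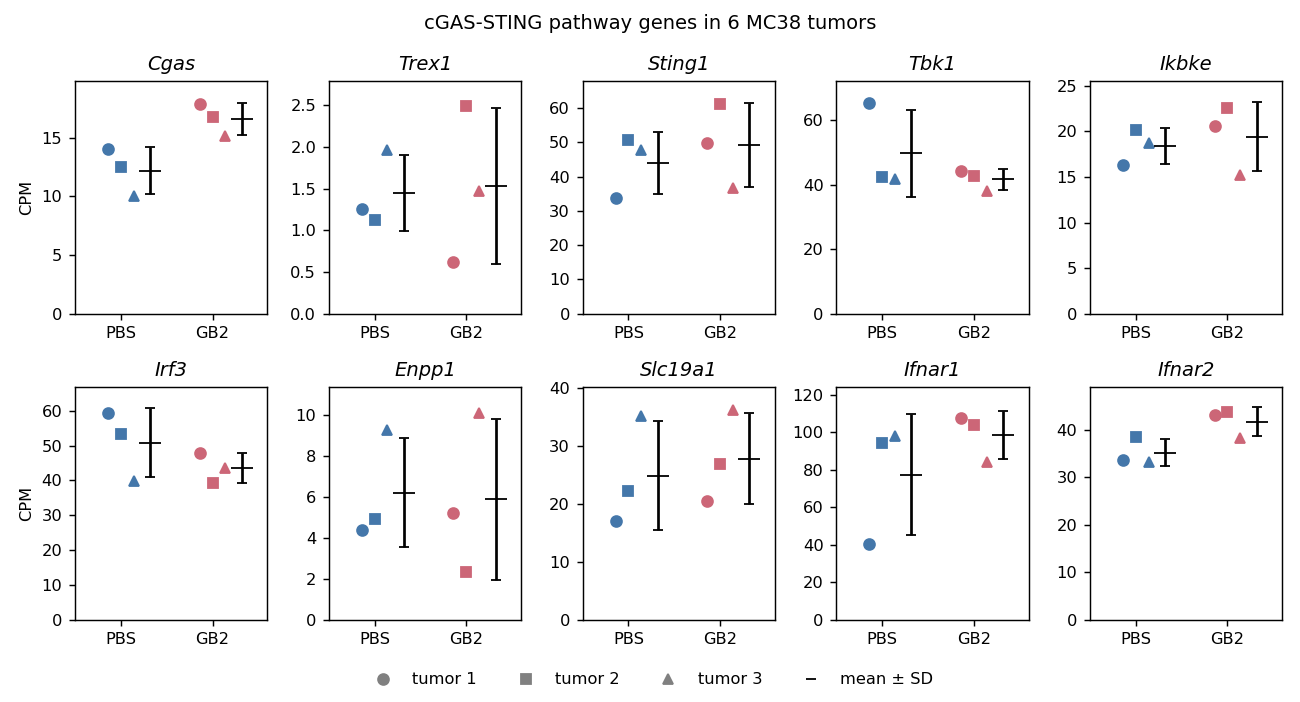
Level of each of the 10 pathway genes in CPM (y axis, from 0, on a scale of its own in each panel) in 3 PBS tumors (blue) and 3 GB2 tumors (red), with symbols for the tumor number and black bars for the mean ± SD. Only Cgas has all 3 GB2 tumors, between 15.1 and 17.9 CPM, above all 3 PBS tumors, between 10.04 and 14.1 CPM.

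The kinases that STING recruits are TBK1 and IKKε, the latter encoded by Ikbke. Tbk1 (ENSMUSG00000020115, chromosome 10, 121382360 to 121422692, minus strand) measured 65.3, 42.2 and 41.7 CPM in PBS tumors and 44.4, 42.6 and 37.9 CPM in GB2 tumors. PBS tumor 1 alone was high, and the other 5 tumors lay between 37.9 and 44.4 CPM. Its log2 fold change was -0.26 ± 0.22 (standard error; adjusted p of 0.809 in edgeR), and 0.0011 without PBS tumor 1. Ikbke (ENSMUSG00000042349, chromosome 1, 131182080 to 131207344, minus strand) measured 16.3, 20.2 and 18.8 CPM in PBS tumors and 20.6, 22.6 and 15.2 CPM in GB2 tumors. The GB2 tumors spanned the whole range of the PBS tumors. For Ikbke the log2 fold change was 0.08 ± 0.22 (standard error), with a confidence interval from -0.43 to 0.58, and it was -0.04 without GB2 tumor 2 and 0.23 without GB2 tumor 3. On the FPKM scale Tbk1 exceeded Ikbke in every tumor, by 9.25, 4.84 and 5.14 times in PBS tumors and by 4.99, 4.37 and 5.75 times in GB2 tumors. The ratio was highest in PBS tumor 1, and the other 5 tumors lay close together.

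Irf3 encodes the transcription factor that TBK1 phosphorylates. Irf3 (ENSMUSG00000003184, chromosome 7, 44647072 to 44652272, plus strand) measured 59.2, 53.4 and 39.9 CPM in PBS tumors and 47.8, 39.2 and 43.6 CPM in GB2 tumors. The groups overlapped, with the highest values in PBS tumors 1 and 2 and the lowest in GB2 tumor 2. The mean was 50.8 ± 9.89 CPM (SD, n = 3) in PBS tumors and 43.5 ± 4.29 CPM (SD, n = 3) in those given GB2, and the log2 fold change was -0.22 ± 0.20 (standard error; adjusted p of 0.810 in edgeR). It was -0.09 without PBS tumor 1 and -0.37 without PBS tumor 3. The start of Irf3 overlaps Bcl2l12, a gene on the opposite strand. The libraries were stranded, but whether the counting used the strand is not given in the sources used here.

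The pathway genes that handle cGAMP outside cells varied between tumors more than between the groups. Enpp1 encodes the ectoenzyme that hydrolyses extracellular cGAMP, and Slc19a1 encodes the reduced folate carrier, which also imports cyclic dinucleotides. Enpp1 (ENSMUSG00000037370, chromosome 10, 24513812 to 24588057, minus strand) measured 4.40, 4.92 and 9.25 CPM in PBS tumors and 5.19, 2.32 and 10.1 CPM in GB2 tumors. The GB2 tumors differed among themselves by 4.35 times, tumor 2 being the lowest and tumor 3 the highest of all 6. Its log2 fold change of -0.08 had a standard error of 0.54, with a confidence interval from a fold of 0.393 to 2.28, and it ran from -0.72 without GB2 tumor 3 to 0.34 without PBS tumor 3. Slc19a1 (ENSMUSG00000001436, chromosome 10, 76868075 to 76886265, plus strand) measured 17.0, 22.3 and 35.2 CPM in PBS tumors and 20.4, 26.8 and 36.1 CPM in GB2 tumors. The ranges of the groups covered each other almost fully. The fitted log2 fold change was 0.16 ± 0.32 (standard error; adjusted p of 0.909 in edgeR), and leaving out PBS tumor 1, GB2 tumor 3 or PBS tumor 3 gave -0.03, -0.07 and 0.51.

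The genes of the type I interferon receptor, Ifnar1 and Ifnar2, lie near each other on chromosome 16. Ifnar1 (ENSMUSG00000022967, 91282126 to 91304329, plus strand) measured 40.2, 94.0 and 97.9 CPM in PBS tumors and 108, 104 and 83.9 CPM in GB2 tumors. PBS tumor 1 was low, while the other PBS tumors lay within the range of the GB2 tumors. Its log2 fold change was 0.35 ± 0.33 (standard error; adjusted p of 0.821 in edgeR), and leaving out PBS tumor 1, 2 or 3 gave 0.05, 0.51 and 0.56. Ifnar2 (ENSMUSG00000022971, 91169671 to 91202477, plus strand) measured 33.7, 38.4 and 33.2 CPM in PBS tumors and 43.1, 43.8 and 38.3 CPM in GB2 tumors. GB2 tumors 1 and 2 were above all PBS tumors, and GB2 tumor 3 was level with PBS tumor 2. The mean was 35.1 ± 2.85 CPM (SD, n = 3) in PBS tumors and 41.7 ± 2.97 CPM (SD, n = 3) in GB2 tumors. For Ifnar2 the log2 fold change was 0.25 ± 0.16 (standard error), with a p of 0.161, or 0.771 once adjusted, in edgeR, and its confidence interval ran from a fold of 0.917 to 1.54. In the deposited FPKM values the Ifnar2 groups did not overlap, with 8.67, 11.1 and 9.71 in PBS tumors and 12.9, 12.5 and 11.4 in GB2 tumors. On that scale 2 of the 10 genes, Cgas and Ifnar2, did not overlap, both higher in GB2 tumors, against 15.2% of all genes, and 10.3% in that direction. The FPKM ratio of Ifnar1 to Ifnar2 was 0.669, 1.37 and 1.65 in PBS tumors and 1.40, 1.33 and 1.23 in GB2 tumors, so that Ifnar2 exceeded Ifnar1 in PBS tumor 1 alone.

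Compared per transcript length, the 10 genes fell into an upper group of 5 and a lower group of 5 in every tumor. Over the 6 tumors the mean was 16.3 FPKM for Sting1 (range 10.5 to 21.2), 14.3 for Ifnar1 (5.80 to 18.0), 13.0 for Irf3 (10.9 to 14.9), 11.1 for Tbk1 (9.60 to 14.3) and 11.05 for Ifnar2 (8.67 to 12.9). These 5 genes changed places between tumors and their ranges overlapped. Below them came Slc19a1 at 5.45 FPKM (3.12 to 7.71), Cgas at 3.33 (2.37 to 4.30), Ikbke at 2.00 (1.55 to 2.38), Trex1 at 1.23 (0.527 to 2.06) and Enpp1 at 0.565 (0.214 to 0.973). The lower 5 held the same order in all 6 tumors, although the ranges of neighbours overlapped when taken across tumors, that of Cgas and Ikbke only just, between 2.37 and 2.38 FPKM. In FPKM the adaptor Sting1 exceeded its upstream enzyme Cgas by 3.60, 6.09 and 7.13 times in PBS tumors and by 4.20, 5.47 and 3.63 times in GB2 tumors, and the groups overlapped.

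**Figure D3:**
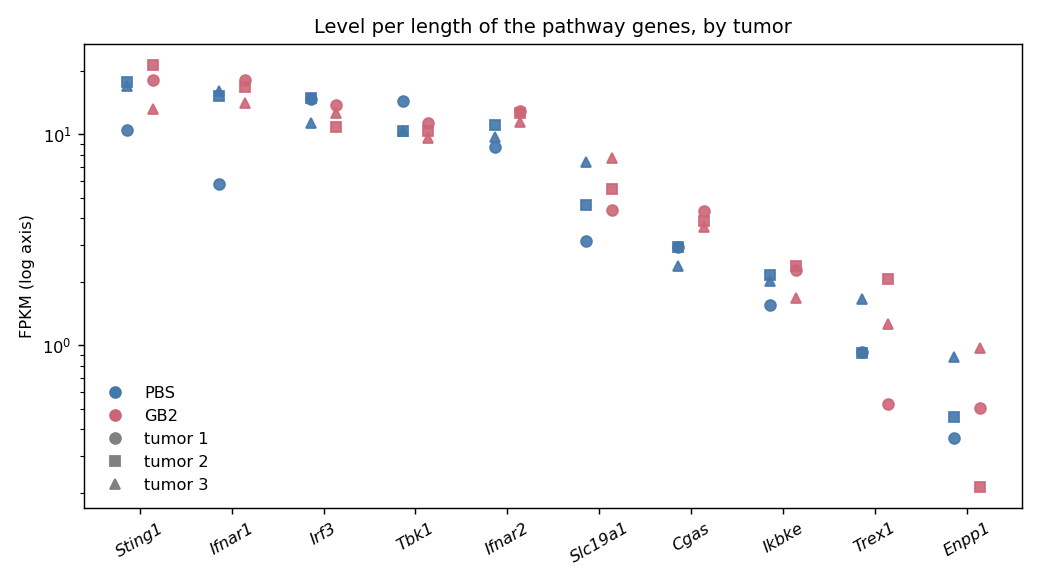
FPKM of the 10 pathway genes on a log axis, ordered by their mean over 6 tumors, with PBS tumors in blue, GB2 tumors in red and symbols for the tumor number. The genes from Sting1, with a mean of 16.3 FPKM, to Ifnar2, with 11.05 FPKM, overlap, and the 5 genes from Slc19a1 to Enpp1 keep their order within every tumor.

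The highest of the 6 CPM values was in a GB2 tumor for 8 of the 10 genes, and the lowest was in a GB2 tumor for 5 and in a PBS tumor for 5. In CPM, PBS tumor 1 was the lowest of the 6 tumors for Sting1, Slc19a1 and Ifnar1 and the highest for Tbk1 and Irf3, which is 5 of the 10 genes. GB2 tumor 2 was the highest for 4 genes and the lowest for 2. Set against the macrophage markers, each of the 10 genes had a lower ratio of its CPM to the summed marker CPM in every GB2 tumor than in every PBS tumor, but so did 81.1% of all genes tested, since the summed marker level itself was higher in every GB2 tumor. For Sting1 the ratio was 0.437, 0.548 and 0.731 in PBS tumors and 0.194, 0.240 and 0.103 in GB2 tumors. For Cgas it was 0.183, 0.135 and 0.154 in PBS tumors and 0.0693, 0.0660 and 0.0426 in GB2 tumors.

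The genes most like Cgas, Sting1 and Enpp1 across the 6 tumors were found by the smallest mean absolute difference of centred log2 CPM among 12562 expressed genes, as a description of these tumors. For Cgas they were Fam72a (0.0560), the replication licensing factor Cdc6 (0.0653) and Zfp184 (0.0686). Cdc6 measured 44.9, 44.1 and 30.5 CPM in PBS tumors and 53.0, 54.1 and 50.0 CPM in GB2 tumors. Its groups did not overlap either, but the gene was chosen for its likeness to Cgas in these tumors. For Sting1 they were Rusc2 (0.0439), Ccdc85c (0.0521) and Lurap1 (0.0526). For Enpp1 they were Dock10 (0.178), Zfp365 (0.207) and Slc35f1 (0.208), whose distances were larger than those of the other 6.

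The wider pathway was followed in 7 lists of 101 genes, of which 88 were in the table and 82 were tested. Of these 82, 0 were called by edgeR, whose smallest adjusted p among them was 0.269, and 10 had an unadjusted p under 0.05, 9 of them higher and 1 lower in GB2 tumors, against 4.69% and 2.24% of all genes. DESeq2 called 4 of the 82, Ifi204, Irf5, Irf7 and Irf9, all higher in GB2 tumors, against 1.8% of all genes in that direction. The median log2 fold change was 0.19.

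Upstream of STING, 15 genes for DNA turnover and cGAS partners had a median log2 fold change of 0.23. Of these, 2 were higher at an unadjusted p under 0.05, against 4.69% of all genes. Without GB2 tumor 3 the median was -0.02. Ifi204, a DNA-binding protein of the interferon-inducible p200 family, measured 2.47, 2.58 and 0.736 CPM in PBS tumors and 5.24, 5.19 and 8.59 CPM in GB2 tumors, with a log2 fold change of 1.72 and an unadjusted p of 0.0102 in edgeR. It has close paralogs that could share reads. Adar, the RNA-editing enzyme, measured 42.5, 67.4 and 59.8 CPM in PBS tumors and 77.0, 89.3 and 83.0 CPM in GB2 tumors, a log2 fold change of 0.55. In both genes the lowest GB2 tumor exceeded the highest PBS tumor. With Dnase1l1 this held in 3 of the 15 genes, against 8.61% of all genes. The transport and hydrolysis of cGAMP was represented by 11 tested genes, such as the volume-regulated channel subunits Lrrc8a and Lrrc8c and the exporter Abcc1. In edgeR's quasi-likelihood test 0 of the 11 had an unadjusted p under 0.05, against 6.94% of all genes. The CPM groups were apart in 0 of the 11, against 15.3% of all genes. Their median log2 fold change was -0.01, between -0.17 and 0.34, beside the -0.08 of Enpp1 and the 0.16 of Slc19a1. That median was -0.12 without PBS tumor 1 and 0.37 without PBS tumor 3.

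Of 24 genes for the trafficking and modification of STING, 2 were higher at an unadjusted p under 0.05, against 4.69% of all genes. Usp18, which also removes the interferon-induced modifier ISG15, measured 4.09, 5.36 and 1.82 CPM in PBS tumors and 4.91, 10.1 and 19.8 CPM in GB2 tumors, and the groups overlapped. Usp13 measured 0.406, 0.326 and 0.580 CPM in PBS tumors and 1.05, 0.998 and 0.918 CPM in GB2 tumors. These groups did not overlap, but counts were few, at 24, 23 and 41 in PBS tumors. In CPM the groups were apart in 2 of the 24 genes, Usp13 and Nlrc3, both higher in GB2 tumors, against 8.61% of all genes. Of 11 adaptors of TBK1 and partners of IRF3, 2 were higher at that limit, against 4.69% of all genes. Both are interferon regulatory factors. Irf7, the interferon-inducible relative of Irf3, measured 3.09, 4.40 and 1.78 CPM in PBS tumors and 6.45, 8.54 and 13.8 CPM in GB2 tumors. For Irf7 the log2 fold change was 1.64, with a p of 0.00568 in edgeR and adjusted p values of 0.341 in edgeR and 0.0162 in DESeq2. Irf5, known for its expression in myeloid cells, measured 1.17, 1.86 and 1.19 CPM in PBS tumors and 3.14, 3.97 and 5.35 CPM in GB2 tumors, with a log2 fold change of 1.56 and adjusted p values of 0.269 from edgeR and 0.00327 from DESeq2. In both, every GB2 tumor was above every PBS tumor, as the macrophage markers were, and the part of those markers in the result was not tested. CPM groups were apart and higher in GB2 tumors in 3 of the 11, against 8.61% of all genes. These were Irf7, Irf5 and Ddx3x, the last with a p of 0.110 in edgeR. Irf3 itself did not share this pattern, with GB2 tumor 2 as its lowest tumor.

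The interferons between IRF3 and the receptor were at or near 0. Of 18 type I interferon genes listed, 5 were in the table and 0 passed the filter, and the other 13 were not analysed here. Ifnb1, the interferon gene that IRF3 turns on most directly, had 0 counts in 5 tumors and 4 counts, apparently about 1 read pair, in GB2 tumor 3. Ifna7 and Ifnab had 0 counts in all 6 tumors, and Ifnk had 6 counts in PBS tumor 3 alone. Ifnz had 1, 5 and 1 counts in PBS tumors and 13, 3 and 2 in GB2 tumors, the highest being apparently about 3 read pairs. A difference in interferon transcripts was therefore not detectable at this depth.

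Downstream of IFNAR1 and IFNAR2, 1 of 9 signalling genes was higher at an unadjusted p under 0.05, against 4.69% of all genes. The median log2 fold change was 0.38, or between 0.24, without PBS tumor 1, and 0.62, without PBS tumor 2. The gene past that limit was Irf9, the DNA-binding partner of STAT2, with 12.7, 21.6 and 13.2 CPM in PBS tumors and 32.6, 31.3 and 41.1 CPM in GB2 tumors. All GB2 tumors exceeded all PBS tumors in this 1 of the 9 genes, against 8.61% of all genes. In CPM the groups were also apart in Ptpn6 and Ptpn2, lower in GB2 tumors with p values of 0.190 and 0.117 in edgeR, against 6.68% of all genes in that direction, and Ptpn6 overlapped in FPKM. The log2 fold change of Irf9, 1.15, had a standard error of 0.26 and a p of 0.00274 in edgeR. Adjusted p values of Irf9 were 0.276 in edgeR and 0.00868 in DESeq2. The receptor kinase genes Jak1 and Tyk2 had log2 fold changes of 0.36 and 0.34, near the 0.35 of Ifnar1 and the 0.25 of Ifnar2, with unadjusted p values of 0.159 and 0.424 in edgeR. Stat2, the partner of Irf9, showed a log2 fold change of 0.38, overlapping groups and a p of 0.141 in edgeR before adjustment. Like that of Ifnar1, the values of both kinase genes depended on PBS tumor 1, without which they were 0.18 for Jak1 and -0.01 for Tyk2, and without PBS tumor 3 they were 0.57 and 0.64.

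Of 12 early targets of IRF3 and interferon, 2 were higher and 1 was lower at an unadjusted p under 0.05. Of all genes, 4.69% were higher and 2.24% lower at that limit. Oasl1, a member of the oligoadenylate synthetase family, measured 0.829, 1.26 and 0.580 CPM in PBS tumors and 1.68, 2.16 and 3.55 CPM in GB2 tumors. Oas1a, whose promoter is printed above, measured 17.5, 13.99 and 9.51 CPM in PBS tumors and 18.3, 22.6 and 26.4 CPM in GB2 tumors, and belongs to a family of near copies that could share reads. Ccl5, a T cell attracting chemokine, went the other way, with 2.57, 3.79 and 2.22 CPM in PBS tumors and 1.55, 1.58 and 1.51 CPM in GB2 tumors. In these 3 genes the groups did not overlap. Of the 12, 11 had a log2 fold change above 0 and the median was 0.37, which leaving out GB2 tumor 3 turned to -0.18. In CPM the groups were apart in 3 genes that were higher in GB2 tumors, Ifit2 with Oasl1 and Oas1a, against 8.61% of all genes. They were apart in 1 that was lower, Ccl5, against 6.68% of all genes. Of the 7 genes of these lists that had an unadjusted p under 0.05 and a RefSeq promoter window, the response element core was found in 1, Oas1a, and the gamma-activated site core in 2, Oas1a and Adar. These 7 genes had 10 windows. The response element core was in 1 of the 10, against 3.44% of all windows, and the gamma-activated site core in 2, against 8.3%.

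**Figure D4:**
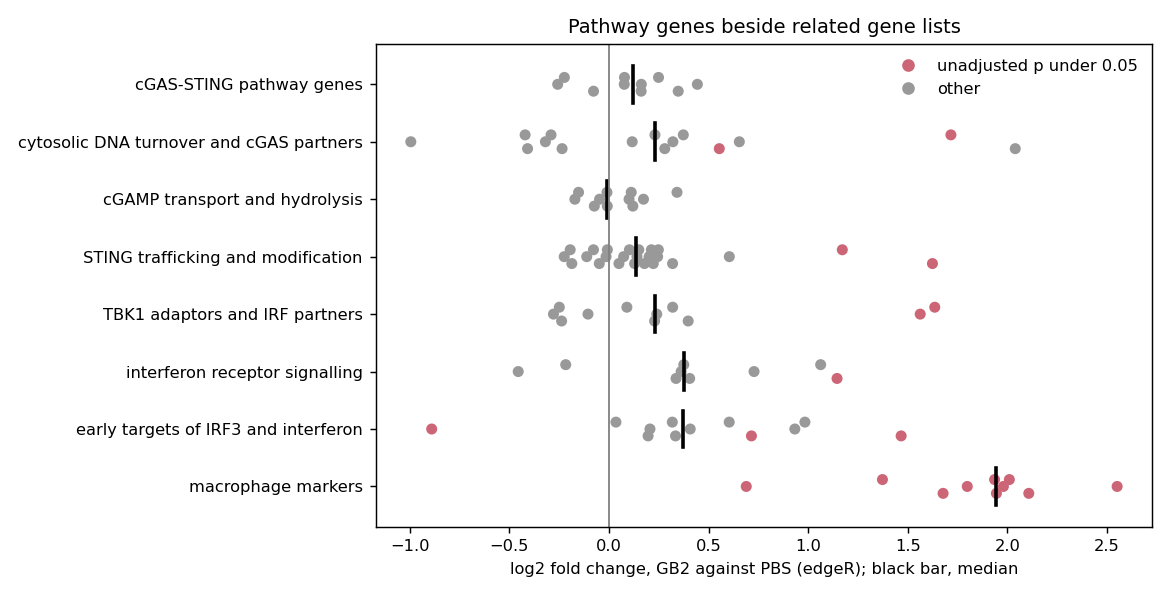
Log2 fold change in GB2 against PBS tumors (edgeR, x axis) of the 10 pathway genes, of 6 lists of related genes with tested members and of the macrophage markers, with 1 point per gene, red for an unadjusted p under 0.05 and a black bar for the median. The pathway genes lie between -0.26 and 0.44 with a median of 0.12 and no red point, and the 10 macrophage markers, with a median of 1.94, are all red.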

How the data were processed

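RNA-seq was analysed for 3 PBS and 3 GB2 MC38 tumors, grouped by the treatment in the labels. The libraries were poly-A selected, stranded and paired-end. The authors deposited estimated counts per gene, unscaled whole numbers in which about 4 counts appear to stand for 1 read pair. The read length used for the counting is not given in the sources used here. The authors also deposited FPKM values, scaled by transcript length and library total. The submitters' processing notes name mm10, cutadapt 1.9, HISAT2 2.2.1, StringTie 2.1.6, DESeq2 and edgeR without their roles. Among 31999 gene IDs also found in a GRCm38 annotation, 641 match it in start and end, so gene positions are printed as the table gives them, on a build not given in the sources used here, while promoters are on GRCm38.p6.

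Estimated counts, already whole, entered edgeR 4.0.16 in R 4.3.3. The filter filterByExpr (minimum count 10) left 19602 genes, which were scaled by TMM and tested with glmQLFit and glmQLFTest. P values were adjusted over all of them by the Benjamini-Hochberg method. CPM are counts over the library size times the TMM factor. Standard errors and 95% confidence intervals come from the test statistic and its degrees of freedom. Calls needed a fold of 2 or more and an adjusted p under 0.05, the limits in the study's methods. The design planned this test on the count columns. Genes named are the 10 pathway genes, up to 4 genes of each list with the smallest unadjusted p under 0.05, direct partners (Ifnb1, Jak1, Tyk2, Stat2, Irf9, Irf7), and the 3 genes nearest in pattern to Cgas, Sting1 and Enpp1 among those with a mean log2 CPM of at least 1. Marker lists are given mainly by their counts and summed levels over tested genes, so most marker genes of this rule are not named, and a gene of the rule is left out. Other list genes were named after their values were seen. The members and lists were chosen with earlier results of these data known. The scripts were tested on simulated counts. Alternatives were DESeq2 1.42.0, RLE factors in edgeR, library size alone, no filter, a minimum count of 40, counts divided by 4, limma 3.58.1 on log2(FPKM + 1) and log2(FPKM + 0.1), a replicate block and leaving out each tumor. No batch is given in the labels. Read pairs are not independent molecules, and the precision of a value is set by the spread between tumors, a biological coefficient of variation of 40.5%.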

Additional observations from a re-analysis of the deposited data

How the results depend on the processing

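None of the 15 alternatives brought any of the 10 pathway genes past an adjusted p of 0.05, and the smallest adjusted p was 0.415. Of 150 values of these genes under the alternatives, 138 kept their direction. Cgas, Ifnar1, Ifnar2 and Irf3 kept theirs under all 15. The number of pathway genes with an unadjusted p under 0.05 was 1 (Cgas) under DESeq2, library size alone, limma on log2(FPKM + 1) and limma on log2(FPKM + 0.1), and 0 to 1 when single tumors were left out. DESeq2 called 385 genes of the whole table where edgeR called 0. On simulated counts in which no gene was changed, DESeq2 called 28 genes and edgeR called 0. Where 200 genes were changed, edgeR called 0 of 92 changed 2-fold, 42 of 91 changed 4-fold and 1 unchanged gene. DESeq2 called 21 of 100 changed 2-fold, 63 of 100 changed 4-fold and 59 unchanged genes. The 10 list genes with an unadjusted p under 0.05 became 6 with the replicate block and 5 to 14 when single tumors were left out. For Trex1 the log2 fold change turned to -0.0013 in limma on log2(FPKM + 0.1) and to -0.10 with the replicate block. When single tumors were left out, log2 fold changes that turned ran from -0.023 to 0.34 for Sting1, -0.36 to 0.0011 for Tbk1, -0.040 to 0.23 for Ikbke, -0.46 to 0.45 for Trex1, -0.72 to 0.34 for Enpp1, -0.071 to 0.51 for Slc19a1, -0.0091 to 0.64 for Tyk2, -0.032 to 0.28 for Rusc2, -0.044 to 0.29 for Lurap1, -0.53 to 0.10 for Dock10 and -0.68 to 0.30 for Slc35f1. The cause was not tested. The labels do not say that equal tumor numbers pair the tumors. Deviations of tumors with equal numbers correlated at 0.03, 0.15 and -0.24 across genes. Tumors with unequal numbers were not compared, so these values cannot settle whether the tumors are paired. The replicate block called 0 pathway genes, as the main fit did. Alternative scalings moved the median of all genes by at most 0.09 on the log2 scale. The median of the 10 genes ran from 0.0065 to 0.28 when single tumors were left out, and the medians of the lists ran from -0.01 to 0.26 for STING trafficking, from 0.0047 to 0.29 for TBK1 adaptors and from -0.18 to 0.68 for the early targets. With 3 tumors a group, a 2-fold change could go uncalled in any of the 10 genes. The intervals of Trex1 and Enpp1 include a 2-fold change in both directions, and that of Ifnar1 a 2-fold increase.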
